A study of Mus musculus with 4 samples.

Results

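Platelet granule, cytoskeleton and release genes were described in tibial bone marrow as a set of 10 genes: Pf4, Ppbp, Thbs1, Mmrn1, Selp, Treml1, Rab27b, Tubb1, F2rl2 and Nrgn. They are 10 of the 55401 genes in the deposited tables, and all 10 were among the 18596 genes that passed an expression filter. The genes were selected on their FPKM in these same 4 libraries, because several of them had lower values after exercise. Their differences between the groups are therefore a description of the values that selected them, and no test or call is given for any of them.

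The RNA-seq compared obese mice (Ob) with obese mice that exercised (Ob + Exe), to ask how exercise acts on bone in diet-induced obesity. All 4 mice were male, wild-type C57/B6 mice that received a high-fat diet (HFD) from the age of 8 weeks. After 6 weeks of this diet, the Ob + Exe mice ran on a treadmill at moderate intensity for 12 weeks, still on the diet. The Ob mice received the diet and no other intervention. Each group had 2 libraries, Ob 1 and Ob 2 against Ob + Exe 1 and Ob + Exe 2, taken as 1 mouse each, although the labels number the replicates without naming the animals. Values are FPKM, fragments scaled to transcript length and library size, which the authors computed per transcript with StringTie. They were summed here per gene and scaled between libraries. A log2 difference is Ob + Exe minus Ob on the log2(scaled FPKM + 0.1) scale, which understates the difference of genes with low values. Group values are mean ± SD with n = 2 mice.

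Platelets are released from megakaryocytes, large marrow cells that pack alpha granules with chemokines and adhesive proteins and dense granules with small signaling molecules. Megakaryocytes make the granule proteins and a platelet-specific tubulin before platelet release, so these transcripts are found in marrow as well as in circulating platelets. On activation by thrombin, collagen or other agonists, the granules fuse with the platelet membrane, their soluble cargo is released and membrane proteins such as P-selectin appear on the surface. In a library of whole marrow, fewer cells of a type and less RNA per cell cannot be told apart.

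The libraries held 9951.8 and 9639.3 Mb of aligned sequence in Ob, and 8805.6 and 8702.2 Mb in Ob + Exe. For cell line the labels give mesenchymal stem cells and for cell type fibroblast, beside bone marrow as tissue, while the study describes marrow spun out of the bone. Hemoglobin and neutrophil genes were abundant in every library. The summed scaled FPKM of 11 erythroid markers ranged from 54574 to 81668, and that of 10 neutrophil markers from 28237 to 65687. In contrast, 7 fibroblast markers summed to between 13.2 and 20.8, and 8 mesenchymal stromal markers to between 115 and 168. Of all genes tested, 2.73% were called lower and 0.979% were called higher in Ob + Exe, a call being an unadjusted limma p below 0.05 with a log2 difference past 1 in size. The limma test gave no gene a Benjamini-Hochberg adjusted p below 0.05 (0 of 18596), and its smallest adjusted p was 0.768. An unadjusted limma p below 0.05 was found for 933 genes. When no gene differs, a share of about 0.05 is expected below this threshold, and 933 of 18596 is near that share. With 2 mice against 2, the smallest two-sided p of an exact permutation test is 0.333.

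The 10 genes were lower in Ob + Exe in 9 cases, and Thbs1 was the exception. Their median log2 difference was -1.0, against -0.0238 over all genes tested. Ob + Exe values were both lower than either Ob value for 6 of the 10, Mmrn1, Treml1, Rab27b, Tubb1, F2rl2 and Nrgn, beside 18.7% of all genes tested. None of the 10 had both Ob + Exe libraries above both Ob libraries, beside 14.0% of all genes. Nothing is read from these shares, since the same values selected the genes. Ob + Exe 2 had the lowest value of 8 of the 10 genes, and of 26.7% of all genes tested. Selp, lowest in Ob + Exe 1, and Thbs1, lowest in Ob 2, were the exceptions. The median also differed by the library left out. Without Ob + Exe 2 the median log2 difference was -0.65, while without Ob + Exe 1 it was -1.47.

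**Figure D1:**
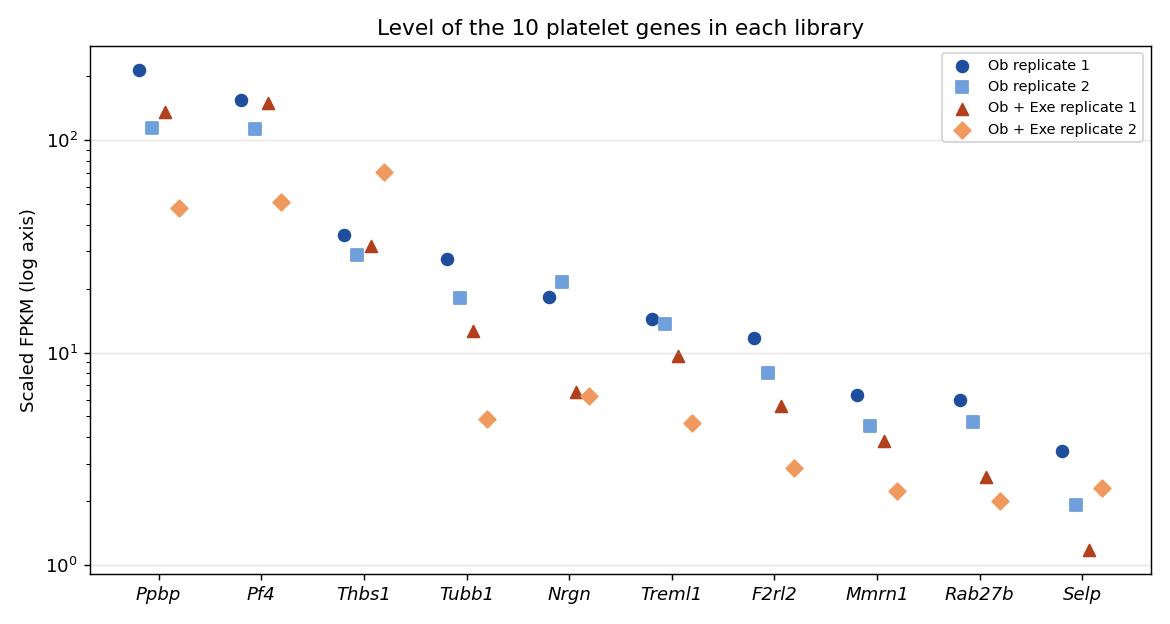
Scaled FPKM of the 10 genes in the 4 libraries on a log axis, with a point for each library. Nrgn sits between 18.2 and 21.4 in Ob and at 6.5 and 6.25 in Ob + Exe, whereas the 2 Ob + Exe values of Pf4 (150 and 51.0) lie far apart.

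The plot of levels by library also shows how far apart the genes are in abundance. On the FPKM scale, which accounts for transcript length, Ppbp (mean 128 over the 4 libraries) and Pf4 (117) were the most abundant, followed by Thbs1 (41.8), Tubb1 (15.8), Nrgn (13.1), Treml1 (10.6), F2rl2 (7.06), Mmrn1 (4.23), Rab27b (3.82) and Selp (2.21). Between neighbours in this order, the ranges over the 4 libraries overlapped in every pair but Thbs1 and Tubb1. Ppbp was above Pf4 in 2 of the 4 libraries only. The ratio of the highest to the lowest library ran from 2.45 for Thbs1 to 5.71 for Tubb1. Together the 10 genes made up 0.107% and 0.0753% of all FPKM in Ob against 0.0829% and 0.0393% in Ob + Exe. Pf4 and Ppbp held 74.9% and 69.2% of that sum in Ob, 79.4% in Ob + Exe 1 and 50.8% in Ob + Exe 2.

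The soluble alpha-granule chemokines are Pf4 (ENSMUSG00000029373.7), which encodes platelet factor 4, a heparin-binding CXC chemokine, and Ppbp (ENSMUSG00000029372.7), which encodes pro-platelet basic protein, the precursor of a neutrophil-attracting chemokine. They lie side by side on chromosome 5 of GRCm38, at chr5:90772435-90773383 and chr5:90768518-90770063, both on the + strand with 2371 bases between them. The 250 bases in front of each RefSeq start are shown because the values of the genes followed each other across the libraries. They are RefSeq sequences of GRCm38.p6, read 5′ to 3′ on the + strand, at chr5:90772185-90772434 and chr5:90768268-90768517.
Pf4: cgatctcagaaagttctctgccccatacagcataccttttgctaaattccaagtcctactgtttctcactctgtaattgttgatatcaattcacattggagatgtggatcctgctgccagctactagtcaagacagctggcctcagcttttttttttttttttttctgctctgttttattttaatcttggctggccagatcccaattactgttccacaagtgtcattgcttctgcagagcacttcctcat
Ppbp: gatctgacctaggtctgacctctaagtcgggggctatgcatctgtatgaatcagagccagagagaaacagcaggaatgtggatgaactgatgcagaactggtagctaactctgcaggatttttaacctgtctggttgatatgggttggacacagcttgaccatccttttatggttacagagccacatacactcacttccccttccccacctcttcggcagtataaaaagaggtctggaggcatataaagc
Neither window held any of the letters searched for GATA1, NF-E2, ETS factors or RUNX1, which are given with the windows of F2rl2 and Mmrn1. That says only that these letters are not in these windows.

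Pf4 had 155 scaled FPKM in Ob 1, 113 in Ob 2, 150 in Ob + Exe 1 and 51.0 in Ob + Exe 2. Ob + Exe 1 was within the range of the Ob libraries and only Ob + Exe 2 was below it, so the groups overlapped. The mean was 134 ± 29.8 in Ob and 100 ± 69.7 in Ob + Exe, a log2 difference of -0.60. Without Ob + Exe 2 the difference turned to 0.17, and without Ob + Exe 1 it was -1.38. Ppbp had 214 and 114 scaled FPKM in Ob against 135 and 48.0 in Ob + Exe. Its groups overlapped as well, since Ob + Exe 1 was above Ob 2. The log2 difference of Ppbp was -0.95, with -0.21 without Ob + Exe 2 and -1.70 without Ob + Exe 1. The ratio of Ppbp to Pf4 was 1.38 in Ob 1 and between 0.905 and 1 in the other libraries. Cxcl5, a chemokine gene next to them that is looked at only for its position, had 2.03 and 4.43 scaled FPKM in Ob against 1.84 and 0.939 in Ob + Exe.

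The adhesive alpha-granule proteins went different ways. Thbs1 (ENSMUSG00000040152.8, chr2:118111876-118127133) encodes thrombospondin 1, a large matrix glycoprotein that monocytes and stromal cells also make. Thbs1 had 35.9 and 28.9 scaled FPKM in Ob, 31.8 in Ob + Exe 1 and 70.8 in Ob + Exe 2. Ob + Exe 2, in which most of the 10 genes were lowest, stood above the other 3 libraries, and these were alike. The log2 difference was 0.56, and it was -0.02 without Ob + Exe 2. The ratio of Thbs1 to Pf4 was between 0.212 and 0.255 in these 3 libraries and 1.39 in Ob + Exe 2. The summed scaled FPKM of the neutrophil markers, 65687, and of the eosinophil, basophil and mast cell markers, 300, was likewise highest in Ob + Exe 2, while the 12 monocyte and macrophage markers were at 539 in both Ob 1 and Ob + Exe 2 and at 496 and 485 in the others. Their part in the Thbs1 values was not tested.

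Mmrn1 (ENSMUSG00000054641.10, chr6:60924976-60989378) encodes multimerin 1, the alpha-granule protein that carries coagulation factor V and is also made by endothelial cells. It had 6.34 and 4.51 scaled FPKM in Ob against 3.83 and 2.23 in Ob + Exe. The Ob + Exe libraries both had lower values than either Ob library. The mean was 5.42 ± 1.3 in Ob and 3.03 ± 1.14 in Ob + Exe, a log2 difference of -0.85 that ranged from -1.23 without Ob + Exe 1 to -0.47 without Ob + Exe 2. A pair of nearly identical transcripts of 4477 and 4472 bases carried most of the Mmrn1 signal, and StringTie divided the reads between them unevenly. The shorter one had 1.20 and 2.53 scaled FPKM in Ob and was listed at 0 in both Ob + Exe libraries. The longer one had 5.05 and 1.89 scaled FPKM in Ob against 3.70 and 2.23 in Ob + Exe, so its groups overlapped.

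The membrane proteins that mark platelet release are Selp (ENSMUSG00000026580.16, chr1:164115264-164150026) and Treml1 (ENSMUSG00000023993.7, chr17:48359916-48367176). Selp encodes P-selectin, the leukocyte-binding receptor stored in alpha granules and in endothelial cells. It had 3.44 and 1.91 scaled FPKM in Ob against 1.18 and 2.31 in Ob + Exe. Ob + Exe 2 was above Ob 2, so the groups overlapped, and the log2 difference of -0.60 was equal in size to that of Pf4 but came from other libraries. It was -0.15 without Ob + Exe 1 and -1.06 without Ob + Exe 2. Behind these values stood from 185 to 703 read equivalents per library, a read equivalent being coverage times transcript length over 150 bases, the length of a read. The transcript of 16 exons held between 63.3% and 81.3% of the gene.

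Treml1 encodes TLT-1, a receptor of the megakaryocyte lineage that sits in alpha granules and binds fibrinogen. It had 14.4 and 13.6 scaled FPKM in Ob against 9.63 and 4.67 in Ob + Exe. The Ob libraries were close to each other and both Ob + Exe libraries were below them, 1 of them much more than the other. The mean was 14 ± 0.574 in Ob and 7.15 ± 3.5 in Ob + Exe, a log2 difference of -1.05 that was -0.53 without Ob + Exe 2. The gene value is a sum over similar transcripts, and their split differed between libraries. The transcript of 1235 bases had 13.8 scaled FPKM in Ob 1 and was listed at 0 in Ob 2, where transcripts of 1229, 974 and 1220 bases took 7.54, 3.21 and 2.81. The ratio of Treml1 to Selp was 4.18 and 7.1 in Ob against 8.15 and 2.02 in Ob + Exe, so the membrane markers did not keep 1 ratio.

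**Figure D2:**
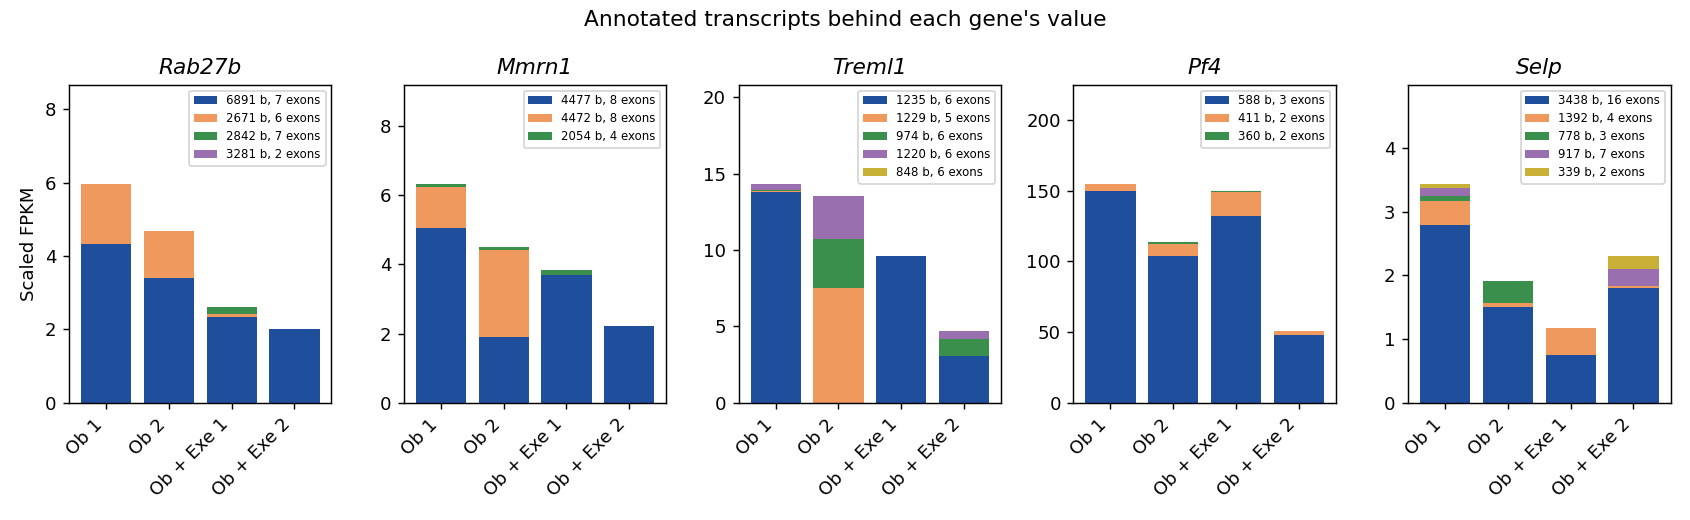
Scaled FPKM of the transcripts of Pf4, Rab27b, Mmrn1, Treml1 and Selp, stacked in each library. The split between transcripts of Treml1 and Mmrn1 differs within the Ob group, and the 2671-base transcript of Rab27b is at 1.62 and 1.29 in Ob against 0.0878 and 0 in Ob + Exe.

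Rab27b (ENSMUSG00000024511.15, chromosome 18) encodes a small GTPase that takes part in the making and secretion of platelet granules. It had 5.97 and 4.69 scaled FPKM in Ob against 2.60 and 2.01 in Ob + Exe. The Ob + Exe libraries were near each other, and both had lower values than either Ob library. The mean was 5.33 ± 0.904 in Ob and 2.31 ± 0.414 in Ob + Exe, a log2 difference of -1.17. Leaving out any library kept it between -1.35 and -1.0. Its 6891-base transcript of 7 exons held 72.6% and 72.5% of the gene in Ob, against 89.7% and 100% in Ob + Exe. A 2671-base transcript of 6 exons had 1.62 and 1.29 scaled FPKM in Ob, 0.0878 in Ob + Exe 1 and was listed at 0 in Ob + Exe 2, as the plot of transcripts shows. Rab27a, the related GTPase used by many secretory cells, was the denominator for a ratio within each library. This ratio was 0.163 and 0.169 in Ob against 0.0696 and 0.0446 in Ob + Exe on the FPKM scale. Rab27a itself had 36.7 and 27.7 scaled FPKM in Ob against 37.4 and 45.1 in Ob + Exe, so both terms of the ratio differed between the groups.

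Tubb1 (ENSMUSG00000016255.5, chr2:174450695-174457882) encodes the beta-1 tubulin of the microtubule ring that gives platelets their disc shape. It had 27.7 and 18.1 scaled FPKM in Ob against 12.6 and 4.86 in Ob + Exe. The Ob + Exe libraries both had lower values than either Ob library, with a wide gap inside each group. The mean was 22.9 ± 6.83 in Ob and 8.72 ± 5.47 in Ob + Exe, a log2 difference of -1.50. It was -0.83 without Ob + Exe 2 and -2.18 without Ob + Exe 1. Tubb4b, the broadly used beta-tubulin with the third highest mean FPKM on the cytoskeleton list, had 273 and 223 scaled FPKM in Ob against 169 and 245 in Ob + Exe. The ratio of Tubb1 to Tubb4b was 0.102 and 0.0812 in Ob, 0.0744 in Ob + Exe 1 and 0.0198 in Ob + Exe 2.

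F2rl2 (ENSMUSG00000021675.4, chr13:95696853-95702739) encodes PAR3, the thrombin receptor that on mouse platelets helps thrombin to cleave PAR4. It had 11.7 and 8.00 scaled FPKM in Ob against 5.63 and 2.85 in Ob + Exe. The Ob + Exe libraries both had lower values than either Ob library. The mean was 9.87 ± 2.65 in Ob and 4.24 ± 1.97 in Ob + Exe, a log2 difference of -1.25, with -0.77 without Ob + Exe 2 and -1.73 without Ob + Exe 1. The gene lies within the span of Iqgap2 on the opposite strand, and the strand setting of the counting is not given in the sources used here. Whether reads of 1 gene were counted for the other was not checked. Iqgap2 had 19.7 and 18 scaled FPKM in Ob against 17.2 and 19.4 in Ob + Exe, a log2 difference of -0.05. Thbs1, Selp and Rab27b also overlap other annotated genes, Gm29233, Gm16548 with Gm16587, and Gm50219. F2r, which encodes PAR1, was set beside F2rl2 in the same libraries, and the ratio of F2rl2 to F2r was 3.45 and 4.44 in Ob, 4.77 in Ob + Exe 1 and 1.09 in Ob + Exe 2. F2rl3, which encodes PAR4 and is named here after its values were seen, had 3.03 and 1.74 scaled FPKM in Ob, 1.01 in Ob + Exe 1 and was listed at 0 in Ob + Exe 2, and it was not called, although some alternatives, such as quantile normalization or voom, called it lower. The ratio of F2rl2 to F2rl3 was 3.87 and 4.59 in Ob and 5.56 in Ob + Exe 1.

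Nrgn (ENSMUSG00000053310.11, chr9:37544492-37552904) encodes neurogranin, a calmodulin-binding protein known from neurons whose transcript is also abundant in platelets. It had 18.2 and 21.4 scaled FPKM in Ob against 6.5 and 6.25 in Ob + Exe. The libraries of each group were close to each other and the groups were far apart. The mean was 19.8 ± 2.29 in Ob and 6.38 ± 0.18 in Ob + Exe, a change of -67.7% and a log2 difference of -1.61. This was the lowest of the 10 genes with all 4 libraries. Without Ob 2, Tubb1 (-1.81) and F2rl2 (-1.53) were lower than Nrgn (-1.49). Without Ob + Exe 1, Tubb1 (-2.18), F2rl2 (-1.73) and Ppbp (-1.70) were lower than Nrgn (-1.64). Leaving out any library kept the difference of Nrgn between -1.73 and -1.49. From 500 to 2062 read equivalents per library stood behind it, and the 1453-base transcript carried practically the whole gene.

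**Figure D3:**
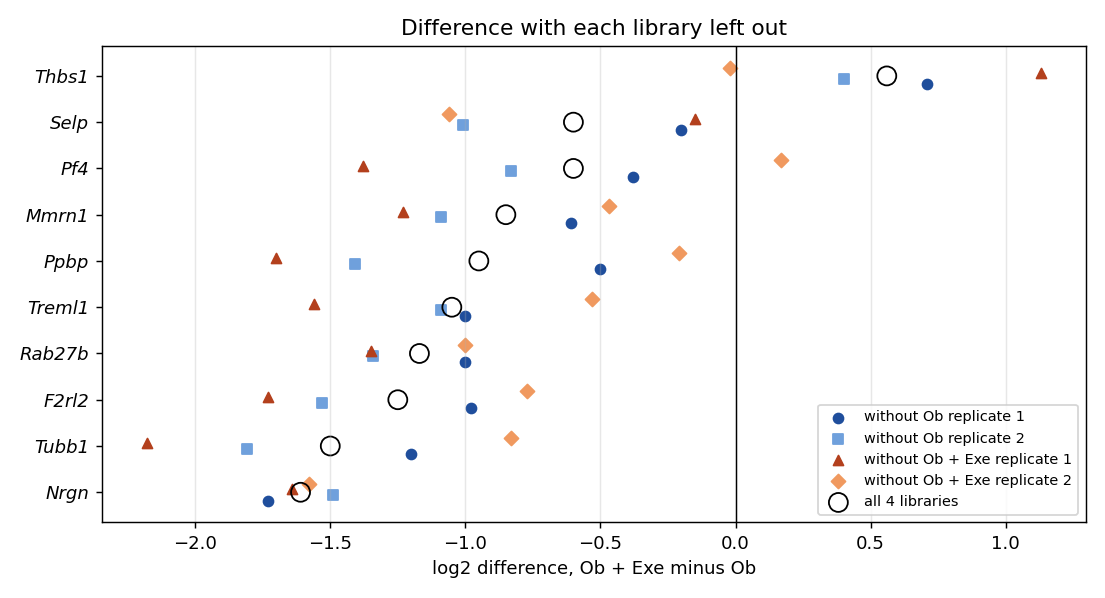
Log2 difference (Ob + Exe minus Ob, log2(scaled FPKM + 0.1)) of each gene with all 4 libraries (open circles) and with each library left out in turn (filled symbols). Nrgn stays between -1.73 and -1.49, while Pf4 runs from -1.38 to 0.17 and Thbs1 from -0.02 to 1.13.

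The promoters were read because transcription in megakaryocytes is known to use GATA1, NF-E2, ETS factors such as FLI1, and RUNX1. RefSeq windows of 250 bases before the start were at hand for 8 of the 10 genes. Thbs1 and Rab27b are the others. The searched letters, on both strands, were AGATAA or AGATAG or TGATAA or TGATAG for GATA1, TGAGTCA for NF-E2, ACAGGAAG and CCGGAA for ETS factors, and TGTGGT and TGCGGT for RUNX1. No 2 matches overlapped in the 8 windows. GATA1 letters were in 2 of the 8 windows, F2rl2 and Mmrn1, and in 26.5% of all 32851 RefSeq windows of this length. NF-E2 letters were in 1 of the 8, F2rl2, and in 4.46% of all windows. ETS and RUNX1 letters were in 0 of the 8, and in 14.5% and 18.6% of all windows. In the Nrgn window, without a match, only 91 of the 250 bases lie before the first annotated exon, and 159 in or after it. Among 129 windows of other platelet genes 31 held GATA1 letters, 7 NF-E2 letters, 18 ETS letters and 26 RUNX1 letters. The windows with a match are shown from GRCm38.p6, 5′ to 3′ on the + strand, with the matched letters in capitals. For F2rl2 the window at chr13:95696670-95696852 ends where its deposited transcript begins, 67 bases before the RefSeq start, and a shorter stretch inside the first exon, chr13:95696858-95696880, holds the NF-E2 letters. For Mmrn1 the window is chr6:60944067-60944316. This window lies inside the annotated gene, in the span of a 2054-base transcript that starts at 60924976. It ends before the transcripts of 4477 and 4472 bases, which start at 60944476 and 60944478.
F2rl2, GATA1 letters: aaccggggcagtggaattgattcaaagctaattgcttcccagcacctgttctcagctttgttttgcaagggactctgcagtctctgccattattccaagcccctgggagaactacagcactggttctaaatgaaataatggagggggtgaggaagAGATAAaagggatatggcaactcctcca
F2rl2, NF-E2 letters: gctcagccTGAGTCAtgcacaca
Mmrn1, GATA1 letters: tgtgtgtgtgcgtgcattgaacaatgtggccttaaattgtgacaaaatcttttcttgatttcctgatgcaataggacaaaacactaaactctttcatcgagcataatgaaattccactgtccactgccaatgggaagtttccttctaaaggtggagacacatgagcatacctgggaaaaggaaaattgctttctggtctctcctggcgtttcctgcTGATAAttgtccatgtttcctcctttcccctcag
The F2rl2 matches were 90 to 95 and 48 to 54 bases before the RefSeq start, and the Mmrn1 match was 29 to 34 bases before it. A match is a run of letters and not a site shown to be bound.

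Across the 4 libraries the 10 genes took several courses, grouped here after their values were seen. Pf4 and Ppbp were lowest in Ob + Exe 2 alone. Mmrn1, Treml1, F2rl2 and Tubb1 were below the Ob libraries in Ob + Exe 1 and lower again in Ob + Exe 2. Nrgn and Rab27b were lower in both to a similar extent, and Selp and Thbs1 followed neither. The ratio of Tubb1 to Pf4 was 0.179 and 0.16 in Ob against 0.0842 and 0.0953 in Ob + Exe, while that of Nrgn to Pf4 was 0.117 and 0.189 in Ob, 0.0435 in Ob + Exe 1 and 0.123 in Ob + Exe 2. The mean of the centred log2 values of the 10 genes was 0.67 and 0.24 in Ob against -0.18 and -0.73 in Ob + Exe. Mmrn1 was nearest to this mean course, with a root mean square difference of 0.081, followed by Rab27b (0.155), Treml1 (0.221) and F2rl2 (0.23). Thbs1 was farthest (0.947), then Selp (0.554).

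**Figure D4:**
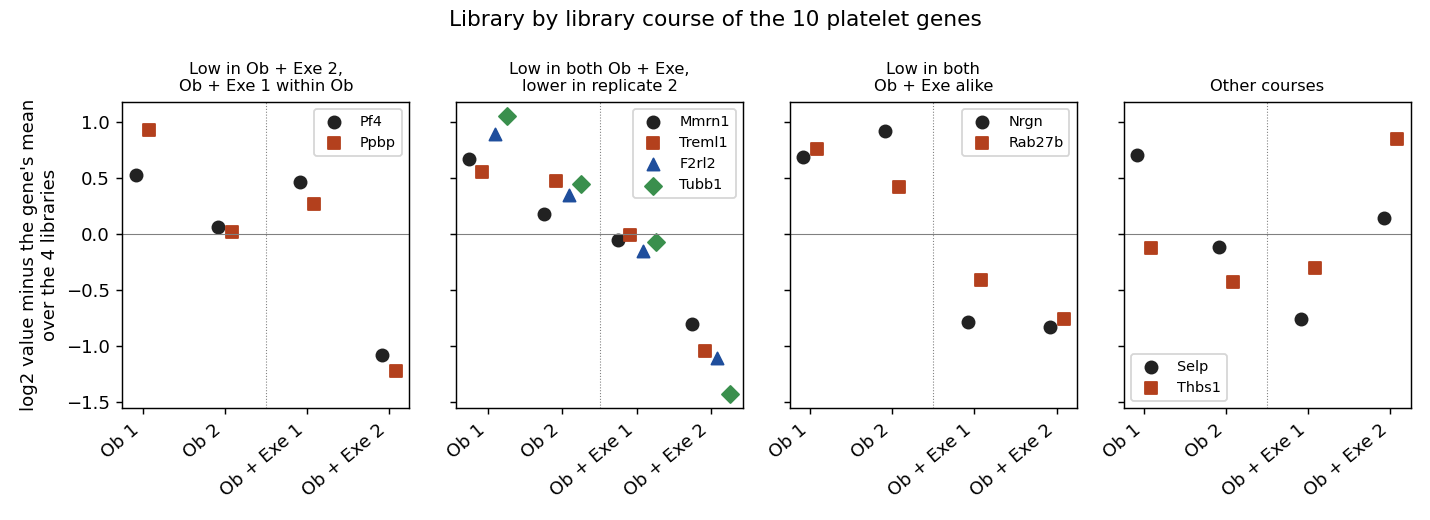
Log2 value of each gene in each library minus the mean of that gene over the 4 libraries, in 4 panels grouped after the values were seen. Pf4 and Ppbp are low in Ob + Exe 2 alone, Nrgn and Rab27b are low in both Ob + Exe libraries, and Thbs1 is high in Ob + Exe 2.

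Among 12399 other genes whose mean FPKM reached 1, the 5 nearest to this mean course over the 4 libraries were Cavin2, Dntt, Hmga1, Aste1 and H3c6, with root mean square differences of 0.0712 to 0.103 on the log2 scale. Cavin2, which encodes a caveola-associated, phosphatidylserine-binding protein also known from platelets, had 12.2 and 9.80 scaled FPKM in Ob against 7.39 and 5.27 in Ob + Exe. Dntt, the terminal transferase of early lymphocytes, had 7.54 and 6.59 scaled FPKM in Ob against 4.31 and 3.16 in Ob + Exe. Hmga1 and H3c6 encode chromatin proteins, a DNA-bending factor and a histone H3, and had 27.8 and 2.92 scaled FPKM in Ob 1 and 12.5 and 1.14 in Ob + Exe 2.

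Other platelet genes were listed by role and not by value, although Gp1ba, Gp5 and Itga2 were known from earlier results of these data. There were 6 lists of 137 genes in all, of which 136 were found and 133 were tested. Of these, 69 were lower and 64 higher in Ob + Exe, with a median log2 difference of -0.02 against -0.0238 over all genes. The limma call was met by 10 genes, 7.52% of the tested ones beside the 2.73% of all genes called lower, and all 10 were lower. None was called higher (0 of 133), beside 0.979% of all genes. The Ob + Exe libraries both had lower values than either Ob library for 32 of the 133, beside 18.7% of all genes, and higher values than either for 23, beside 14.0%. These shares are a description only, since the lists were drawn up with earlier results of these data known. None of the 10 had a Benjamini-Hochberg adjusted p below 0.05 in limma, where their adjusted p lay between 0.943 and 0.96. The count depended on single libraries, with 1 gene called without Ob 1, 2 without Ob 2, 19 without Ob + Exe 1 and 4 without Ob + Exe 2.

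**Figure D5:**
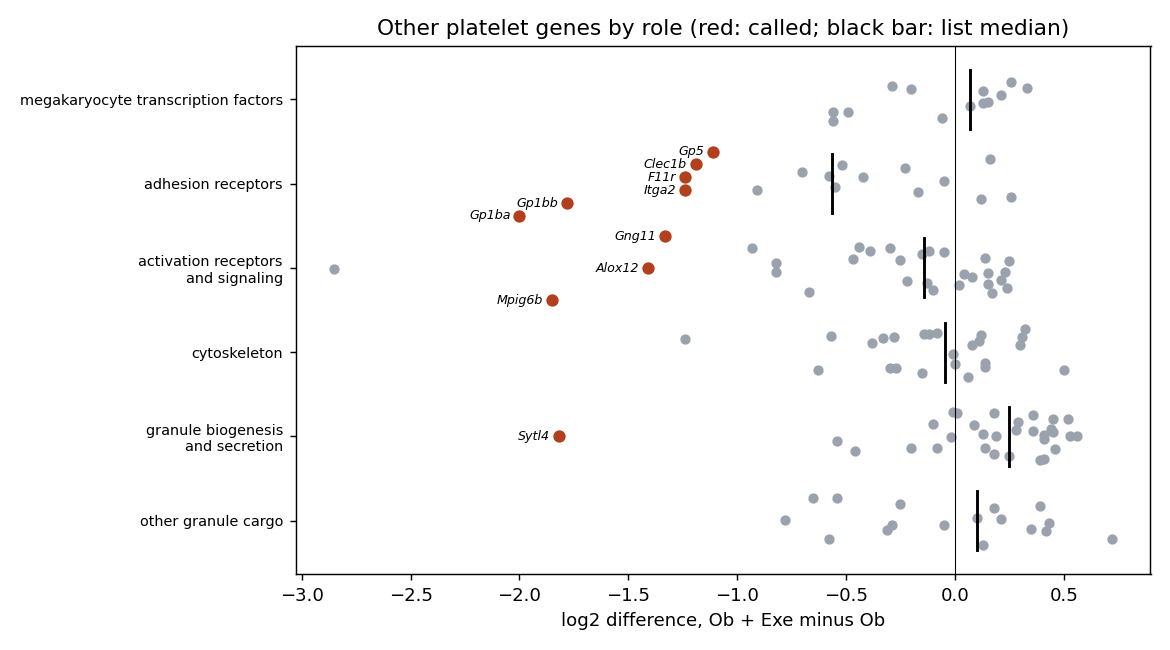
Log2 difference (Ob + Exe minus Ob) of the tested genes of 6 lists of other platelet genes, a point per gene, with called genes in red and named and a black bar at the median of each list. The adhesion receptors have 6 of the 10 called genes and a median of -0.56, and the granule biogenesis and secretion genes have a median of 0.25.

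As the plot by role shows, 6 of the 10 called genes were adhesion receptors and none was a granule cargo gene. Of 17 tested granule cargo genes, 8 were lower and 9 higher, none was called, and the median was 0.10. The most abundant were Srgn, the core protein of a granule proteoglycan, and Cd63 and Lamp2, membrane proteins of granules and lysosomes, all of which are widely expressed in marrow cells. Srgn had 286 and 168 scaled FPKM in Ob against 269 and 325 in Ob + Exe, with overlapping groups. Cd63 had 140 and 113 in Ob against 161 and 160 in Ob + Exe, both above both Ob libraries, at a log2 difference of 0.35. Lamp2 had 71.6 and 58.6 in Ob against 67.9 and 111 in Ob + Exe. The fibrinogen genes Fga, Fgb and Fgg, whose protein platelets take up from plasma, were listed at 0 in every library.

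Of 31 tested genes of granule biogenesis and secretion, 8 were lower and 23 higher, and the median log2 difference was 0.25. A single gene was called lower, 3.23% of them beside 2.73% of all genes. The called gene was Sytl4, which encodes granuphilin, a partner of Rab27 proteins on secretory granules. It had 1.77 and 1.87 scaled FPKM in Ob against 0.773 and 0.240 in Ob + Exe, a log2 difference of -1.82 ± 0.61 (SE), and both Ob + Exe values were lower than either Ob value. From 436 read equivalents in Ob 1 to 50 in Ob + Exe 2 stood behind these values. The most abundant genes of the list were Vamp8, the main vesicle SNARE of platelet secretion, with 94.9 and 117 scaled FPKM in Ob against 81.3 and 72.4 in Ob + Exe, the SNARE regulator Stxbp2, with 69.7 and 75.7 in Ob against 104 and 83.9 in Ob + Exe, and Vamp3, with 47.8 and 45 in Ob against 44.7 and 68.1 in Ob + Exe. Vamp8 was lower and Stxbp2 higher in both Ob + Exe libraries, and neither was called.

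Of 24 tested cytoskeleton genes, 13 were lower and 11 higher, none was called, and the median was -0.04. The actin-binding genes Pfn1 and Cfl1, used by every cell, had log2 differences of -0.01 and -0.08, and Tubb4b had -0.28, all with overlapping groups. Of 13 tested megakaryocyte transcription factors, 6 were lower and 7 higher, none was called, and the median was 0.07. Lmo2, Nfe2 and Gata1, which erythroid cells share, had log2 differences of -0.06, 0.13 and 0.15.

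Of 30 tested activation receptors and signaling genes, 19 were lower and 11 higher, and the median was -0.14. The 3 called lower were 10% of them, beside 2.73% of all genes. Gng11, a G protein gamma subunit, had 14.1 and 15.5 scaled FPKM in Ob against 6.18 and 5.46 in Ob + Exe, with a log2 difference of -1.33 ± 0.24 (SE). Its libraries were close within each group. It was called in 13 of 13 alternatives, while its adjusted p was 0.943 in limma and ran from 0.284 to 0.994 over them. The other 9 called genes each lost the call in some alternatives, with Gp1ba and Gp1bb called in 11 of 13, Alox12 and Clec1b in 10, Gp5 in 9, Sytl4, Mpig6b and F11r in 8, and Itga2 in 5 of the 12 that tested it. Alox12, the platelet 12-lipoxygenase, had 16.3 and 13.1 scaled FPKM in Ob against 7.39 and 4.0 in Ob + Exe, with a log2 difference of -1.41 ± 0.36 (SE). Mpig6b, which encodes an inhibitory receptor of megakaryocytes, had 7.88 and 8.15 scaled FPKM in Ob against 4.57 and 0.981 in Ob + Exe, and the gene overlaps Ly6g6c. In contrast, the abundant and widely expressed genes Rap1b, Rasgrp2 and Lyn had log2 differences of 0.08, 0.14 and 0.25.

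Of 18 tested adhesion receptors, 15 were lower and 3 higher, and the median was -0.56. The 6 called lower were 33.3% of them, beside 2.73% of all genes, and Gp1ba, Gp5 and Itga2 of these were known from earlier results. Gp1ba and Gp1bb encode the alpha and beta chains of the von Willebrand factor receptor, and Gp5 a further subunit of the same complex. Gp1ba had 7.86 and 7.15 scaled FPKM in Ob against 3.13 and 1.02 in Ob + Exe, a log2 difference of -2.0 ± 0.54 (SE). Gp1bb had 10.6 and 11.3 scaled FPKM in Ob against 2.18 and 4.40 in Ob + Exe, a log2 difference of -1.78 ± 0.39 (SE), and it overlaps Septin5. Gp5 had 16.8 and 9.31 scaled FPKM in Ob against 6.46 and 5.15 in Ob + Exe. All 3 genes had both Ob + Exe libraries below both Ob libraries. Clec1b, which encodes the podoplanin receptor CLEC-2, had 26.4 and 24.7 scaled FPKM in Ob against 15 and 8.33 in Ob + Exe, a log2 difference of -1.19 ± 0.32 (SE), and it overlaps Clec9a. Itga2, the collagen-binding integrin alpha 2, and F11r, a junctional adhesion molecule, were called lower at a log2 difference of -1.24 each. Itga2 had 1.39 and 1.40 scaled FPKM in Ob against 0.631 and 0.452 in Ob + Exe, and F11r had 2.64 and 3.16 in Ob against 1.61 and 0.842. The most abundant genes of the list, Fcer1g, Cd9 and Cd84, are shared with myeloid and lymphoid cells and had log2 differences of -0.05, 0.26 and 0.16, with none called.

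Markers of other marrow cells were set beside these values. Of 103 tested markers on 14 lists, 4 were called lower, 3.88% beside the 2.73% of all genes, and 2 were called higher, beside 0.979% of all genes. Endothelial cells also make P-selectin, thrombospondin 1 and multimerin 1, and 9 of 10 endothelial markers were lower in Ob + Exe, beside 9693 of all 18596 genes, with none called and none at 0 in all libraries. Their summed scaled FPKM was 19.1 and 19.6 in Ob against 24.6 and 11.6 in Ob + Exe, so the groups overlapped. Their part in the values of Selp, Thbs1 and Mmrn1 was not tested. The 8 B-lineage markers summed to 200 and 209 scaled FPKM in Ob, against 161 and 125 in Ob + Exe, both lower, with Cd79a and Igll1 called lower. Their course was lowest in Ob + Exe 2, as that of most of the 10 platelet genes, and its part in their differences was not tested. In the other direction, 7 of 7 eosinophil, basophil and mast cell markers were higher, with Prg2 called, as were 4 of 4 tested skeletal muscle markers, with Acta1 called, beside 8903 of all genes. The erythroid and neutrophil sums were highest in Ob + Exe 2, at 81668 and 65687, the library with the lowest share of FPKM from the 10 genes. The erythroid sum was led by Hbb-bs, with 32965 and 27674 scaled FPKM in Ob against 17631 and 43309 in Ob + Exe. By gene, 9 of the 11 erythroid markers were lower in Ob + Exe and 2 higher, while 1 of the 10 neutrophil markers was lower and 9 higher. Their part in the values of the 10 genes was not tested either.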

How the data were processed

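Poly-A RNA from tibial marrow of 2 Ob and 2 Ob + Exe mice was sequenced. The authors cleaned the reads with fastp, discarded rRNA reads, mapped the rest to GRCm38 with HISAT2 and ran StringTie on the transcripts of GENCODE vM25. The deposited FPKM values are per transcript and normalized for length and library size by the authors. The deposited coverage is a signal per transcript that is not scaled for depth, and it served for read equivalents only. Whole counts were not analysed here, so the count-based DESeq2 test of the authors was replaced by limma.

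Transcript FPKM were summed per gene ID, and libraries were scaled by median-of-ratios factors (0.9494 to 1.0326, from 12235 genes whose mean FPKM reached 1 and that had no value of 0). Genes whose mean FPKM reached 0.1 were fitted as log2(scaled FPKM + 0.1) by limma 3.58.1 under R 4.3.3, using lmFit and a trended eBayes that left 2 residual degrees of freedom, with Benjamini-Hochberg adjusted p values over all 18596 genes. The fit was tested on simulated data. Python 3.11.15, pandas 2.3.3 and matplotlib 3.10.9 handled tables and figures. Between 44310505 and 53038186 read equivalents lay on transcripts per library, and the number of mice limits the precision.

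The 10 genes, the gene lists, the motif letters, the grouping by course and the genes that set the scaling factors were chosen with values or earlier results of these data known. Named were all 10 genes, of each platelet list the called genes and the 3 with the highest mean FPKM, and the 5 genes nearest to the mean course. Denominators of ratios, neighbours and overlapping genes were named beside these after their values were seen. Vamp7 was not found by its symbol, and 1 further platelet gene is not reported here. Promoters came from RefSeq. Replicate numbers were not a term of the fit, since the study describes no pairing of mice. The alternatives were other pseudocounts and filters, quantile normalization, no scaling, an untrended eBayes, voom of limma on read equivalents, a replicate block and leaving out each library.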

Additional observations from a re-analysis of the deposited data

How the results depend on the processing

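Over all genes, 508 were called lower and 182 higher. With a pseudocount of 1 the counts were 152 and 72, and with a minimum mean FPKM of 1 they were 176 and 91. Without an expression filter 822 were called lower, with voom 304 and without the intensity trend 789. Leaving out 1 library gave 650 to 1270 lower and 95 to 652 higher, with the lone library of a group assumed to vary like the others. Of the other platelet genes, 10 were called lower. Without a filter there were 6, and with 1 library left out from 1 (without Ob 1) to 19 (without Ob + Exe 1). None was called higher (0) in any of the 13 alternatives, all run with limma. The median log2 difference of the 10 selected genes was -1.0 and ran from -1.47 to -0.65 with 1 library left out. Pf4 ran from -1.38 to 0.17 and Thbs1 from -0.02 to 1.13, and both turned sign without Ob + Exe 2 alone. The other 8 kept their direction in all alternatives, which is no support for it, since the same values selected the genes. The expression filters, the untrended eBayes and the replicate block could not change the differences of the 10 genes.

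The study describes no pairing of mice by replicate number. The difference between replicate 1 and replicate 2 correlated at -0.106 between the groups across genes, and at -0.235 across genes whose mean FPKM reached 1. Such a correlation cannot show whether the mice were paired. With a replicate block, 545 genes were called lower and 231 higher, 11 other platelet genes were called lower, and 28 genes of all had an adjusted p below 0.05 in limma. The differences of the 10 genes are the same under the block by construction. The 10 genes had 185 or more read equivalents in every library. Counting error was not separated from the spread between the 2 mice of a group.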
